A study of Mus musculus with 28 samples.

Results

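Loss of the paralogous nuclear receptors HNF4A and HNF4G from thymic epithelium was compared between mTEChi and mTEClo, the sorted subsets of medullary thymic epithelial cells (mTECs). The quantity described is the interaction of genotype and subset: the log2 fold change of double-mutant against control cells in mTEChi minus the same fold change in mTEClo. A negative value means that a gene lost more of its level, or gained less, in mTEChi, and a positive value means the same for mTEClo. It rests on 16 of the 28 libraries of the series, chosen by genotype and subset alone, with 4 libraries in each of 4 groups, and was computed for all 20095 genes that passed a filter on low counts.

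All mice were on the C57BL/6 background and carried Foxn1cre(+/-), which deletes floxed DNA in thymic epithelium. Control mice were Hnf4a(fl/+)Hnf4g(+/-) and thus had 1 floxed Hnf4a allele and 1 mutant Hnf4g allele, and double mutants were Hnf4a(fl/fl)Hnf4g(-/-). The Hnf4g alleles are written without a floxed site, so their loss is not limited to the thymus by the label. For mTEClo the labels add post-Aire; the labels give no ages. Each library was made from 1000 sorted cells after depletion of CD45+ cells, from polyadenylated RNA, without molecular identifiers.

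HNF4 proteins bind DNA as dimers and maintain gene programs of the intestinal epithelium, the liver and the kidney. Medullary thymic epithelial cells transcribe many genes of peripheral tissues, which exposes developing T cells to those antigens. Cells in the mTEChi state have high MHC class II and express Aire, a regulator of such transcription; after the Aire stage, mTECs can take on programs that resemble gut, tuft, microfold, skin or other epithelia and have lower MHC class II.

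Total counts were 5344084 to 8342583 per library and mitochondrial genes took 1.43% to 2.06% of them. The labels of the subsets fitted their markers: Aire was at 1370 to 2310 CPM (counts divided by the library total and scaled up to a fixed sum) in the 8 mTEChi libraries and at 145 to 564 in the 8 mTEClo libraries, while Trpm5, a cation channel of tuft cells, was at 65.7 to 143 in mTEChi and 1730 to 2660 in mTEClo. Control mTEClo replicate 1 and double-mutant mTEChi replicate 3 had the lowest mean correlation with the other libraries of their group (0.9468 and 0.9437, against up to 0.9565). Counts are therefore also given without them. The labels do not state that each library of a group is from its own animal, and the spread behind every p-value is that between libraries, whose source may be technical.

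By edgeR more genes were lower in double mutants in mTEClo than in mTEChi, and few passed the test of a difference in fold change between the subsets. In mTEClo, 458 genes (2.28%) differed: 431 were lower (2.14% of those tested) and 27 higher (0.134%) in double mutants at adjusted p under 0.05 in the quasi-likelihood test, which defines "called" throughout. In mTEChi, 168 genes (0.836%) differed: 130 were lower (0.647%) and 38 higher (0.189%). By limma-voom the order of the counts turned, with 183 lower in mTEClo and 193 in mTEChi. The interaction was called for 12 genes (0.0597% of those tested), 4 of them negative (0.0199%) and 8 positive (0.0398%). At an unadjusted p under 0.05 the interaction gave 2298 genes (11.4%), of which 823 were negative (4.1%) and 1475 positive (7.34%).

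These counts turn on single libraries and on the tool. The interaction gave 157 calls without double-mutant mTEChi replicate 3, 85 without control mTEClo replicate 1 and 257 without both, and each of these sets held the 12 genes. It gave 1 call without control mTEChi replicate 4 and 2 without control mTEClo replicate 4 or double-mutant mTEClo replicate 1. DESeq2 called 360 genes, the 12 among them. In mTEChi, the 38 higher genes became 177 without double-mutant mTEChi replicate 3, while the 130 lower became 178; the mTEClo calls became 238 without control mTEClo replicate 4 and 258 without double-mutant mTEClo replicate 1.

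Genes called lower in one subset were mostly negative in the other. Of the 431 genes lower in mTEClo, 338 (78.4%) had a negative fold change in mTEChi, where 48.9% of all tested genes did; their median log2 fold change was -1.32 in mTEClo, by which they were chosen, and -0.34 in mTEChi. Of the 130 lower in mTEChi, 112 (86.2%) were negative in mTEClo, against 51.4% of all genes, with medians of -1.15 in mTEChi, by which they were chosen, and -0.57 in mTEClo. The lists shared 55 genes, which is 12.8% of the mTEClo list and 42.3% of the mTEChi list, and no gene was called in opposite directions. Over all genes the median was -0.01 in mTEClo, 0.01 in mTEChi and 0.05 for the interaction.

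**Figure D1:**
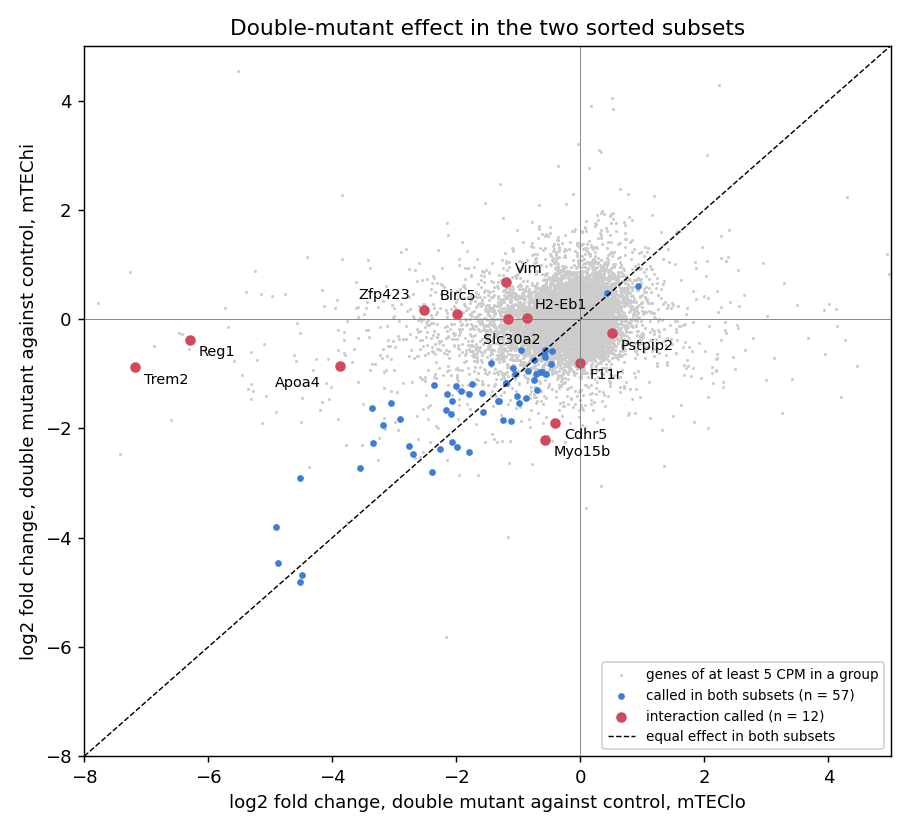
Log2 fold change of double-mutant against control cells in mTEClo (horizontal axis) and in mTEChi (vertical axis), 1 point per gene; grey points are genes of at least 5 CPM in a group, blue points the 57 genes called in both subsets and red points the 12 genes called in the interaction. Points on the dashed line have the same fold change in both subsets: Cdhr5, Myo15b and F11r lie below it, Apoa4, Reg1 and Trem2 far above it.

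The promoters of the genes at the ends of this comparison were searched for the HNF4-type motif CAAAGTNCA, on both strands (TGNACTTTG on the other). The windows reach from 250 bases before to 50 bases after each start in RefSeq, on GRCm38.p6. The motif was chosen with the Apoa4 promoter in view. Of 14318 tested genes with a promoter in the table, 212 (1.48%) held it. Of the 55 genes lower in both subsets, 42 had a promoter there and 4 of these held it (9.52%). Of genes with a promoter called lower in mTEClo alone, 11 of 289 held it (3.81%). For those called lower in mTEChi alone it was 2 of 58 (3.45%). Of the 11 matched interaction genes, Apoa4 alone held it. The windows of H2-Eb1, Birc5, Slc30a2 and Reg1, which like Apoa4 had the larger fold loss in mTEClo, held none. The Lgals4 window, of a gene with a similar loss in both, held none either. Apoa4 and Muc13 are thus exceptions among such genes. Their windows beside those of Cdhr5 and F11r do not show a difference between the subsets. Windows are given for Apoa4 (larger fold loss in mTEClo), Muc13 (similar loss in both), and Cdhr5 and F11r (larger loss in mTEChi), with the motif in capitals. They lie at chr9:46240594-46240893 (plus strand) for Apoa4, chr16:33794239-33794538 (plus strand) for Muc13, chr7:141276737-141277036 (minus strand) for Cdhr5 and chr1:171437311-171437610 (plus strand) for F11r.
Apoa4: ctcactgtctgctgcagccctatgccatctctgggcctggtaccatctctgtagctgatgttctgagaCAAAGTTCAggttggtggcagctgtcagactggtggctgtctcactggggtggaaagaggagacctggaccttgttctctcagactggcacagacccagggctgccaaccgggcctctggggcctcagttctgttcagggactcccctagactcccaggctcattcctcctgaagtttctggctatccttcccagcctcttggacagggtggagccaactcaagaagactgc
Muc13: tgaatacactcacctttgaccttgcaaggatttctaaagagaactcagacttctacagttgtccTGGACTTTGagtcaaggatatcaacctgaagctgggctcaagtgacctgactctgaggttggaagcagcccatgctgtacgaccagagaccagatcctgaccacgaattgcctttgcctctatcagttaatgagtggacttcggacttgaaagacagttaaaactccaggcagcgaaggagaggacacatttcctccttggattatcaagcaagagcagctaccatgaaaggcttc
Cdhr5: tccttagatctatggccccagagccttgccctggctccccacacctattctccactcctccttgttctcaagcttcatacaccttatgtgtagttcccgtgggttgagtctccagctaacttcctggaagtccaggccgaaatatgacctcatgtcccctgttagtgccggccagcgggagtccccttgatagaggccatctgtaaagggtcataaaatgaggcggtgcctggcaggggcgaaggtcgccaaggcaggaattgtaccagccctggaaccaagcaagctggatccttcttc
F11r: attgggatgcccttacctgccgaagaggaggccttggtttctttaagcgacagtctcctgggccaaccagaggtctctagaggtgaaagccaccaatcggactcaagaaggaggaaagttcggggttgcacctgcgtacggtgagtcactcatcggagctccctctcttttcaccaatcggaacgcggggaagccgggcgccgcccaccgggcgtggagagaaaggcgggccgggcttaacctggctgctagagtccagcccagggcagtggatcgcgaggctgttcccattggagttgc
The match began 182 bases before the start in Apoa4, as CAAAGTTCA, and 186 bases before it in Muc13, on the other strand as TGGACTTTG. The table has another Muc13 window, at the start of the gene as annotated (chr16:33793787-33794086), which does not hold the motif; a gene was counted if any of its windows did. Anks4b, Clrn3 and Ccl9, also lower in both subsets, held a match 59, 51 and 43 bases before the start. The windows of Cdhr5, F11r and Myo15b held none, which says only that these letters are not in them. The Myo15b window (chr11:115857675-115857974) ends before the gene start given below, so the bases at that start were not searched.

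Among the 4 genes of negative interaction, F11r, Cdhr5 and Myo15b fell in mTEChi by a larger fold than in mTEClo, and Pstpip2 rose in mTEClo. F11r (1:171437535-171464603), which encodes the tight junction adhesion molecule JAM-A, kept its level in mTEClo and fell in mTEChi. It was at 858, 833, 804 and 795 CPM in control mTEClo and 808, 795, 841 and 837 in double-mutant mTEClo. In mTEChi it was at 756, 674, 769 and 721 CPM in controls and 409, 456, 439 and 373 in double mutants. The mTEClo groups overlapped and every double-mutant mTEChi library lay below every control. The log2 fold change was -0.003 (SE 0.08, adjusted p = 0.995) in mTEClo and -0.80 (SE 0.08, adjusted p = 2.24e-05) in mTEChi, and the interaction was -0.80 (95% interval -1.02 to -0.57, adjusted p = 0.0167). In bulk libraries, fewer cells of a type and less RNA per cell cannot be told apart, here and below.

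Cdhr5 (7:141269083-141276786) encodes a cadherin that links the tips of neighbouring microvilli. It was at 237, 218, 227 and 254 CPM in control and 144, 199, 194 and 170 in double-mutant mTEClo. In mTEChi it was at 158, 136, 167 and 189 CPM in controls and 32.6, 59.2, 39.9 and 42.7 in double mutants. Neither pair of groups overlapped, but double mutants had 75.6% of the control mean left in mTEClo and 26.8% in mTEChi. The log2 fold change was -0.40 (SE 0.15, adjusted p = 0.208) and -1.90 (SE 0.16, adjusted p = 6e-06), and the interaction was -1.499 (-1.95 to -1.05, adjusted p = 0.0167).

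Myo15b (11:115858406-115892603), an unconventional myosin gene, had the same form. Its levels were 177, 149, 191 and 155 CPM in control and 109, 123, 102 and 117 in double-mutant mTEClo. In mTEChi they were 51.0, 63.1, 81.0 and 82.7 in controls and 10.8, 14.4, 13.8 and 20.9 in double mutants. No groups of one subset overlapped, and 67.1% of the control mean was left in mTEClo against 21.5% in mTEChi. This was a log2 fold change of -0.58 (SE 0.17, adjusted p = 0.0861) and -2.21 (SE 0.18, adjusted p = 6e-06), and the interaction -1.63 (-2.15 to -1.12, adjusted p = 0.0182). On the linear scale the loss was 55.2 CPM in mTEClo and 54.5 in mTEChi, so the difference in fold rests on the lower control level in mTEChi. Reads of Myo15b and of Recql5, which overlaps it on the other strand, cannot be told apart.

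Pstpip2, which encodes an adaptor protein of the cytoskeleton, moved the other way in mTEClo. It was at 232, 209.5, 217 and 206 CPM in control and 277.5, 311, 348 and 287 in double-mutant mTEClo, against 76.1, 77.9, 70.2 and 67.1 in control and 61.3, 53.3, 66.0 and 62.2 in double-mutant mTEChi. All double mutants were above the controls in mTEClo and below them in mTEChi. The rise in mTEClo was called (log2 fold change 0.50, SE 0.09, adjusted p = 0.00646) and the change in mTEChi was not (-0.26, SE 0.10, adjusted p = 0.261). The interaction was -0.76 (-1.04 to -0.48, adjusted p = 0.0448).

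F11r remained called with each of the 16 libraries left out in turn. It was not called by edgeR when libraries of the same number and genotype were taken as a block (adjusted p = 0.134). In that fit only Cdhr5 stayed called. Cdhr5 missed the threshold without control mTEChi replicate 4 (adjusted p = 0.0532), and Myo15b did so without that library, control mTEClo replicate 4 or double-mutant mTEClo replicate 1. Pstpip2 was called in 2 of the 16. Of the genes of positive interaction described next, Trem2 was called in 11, Zfp423 in 8, Apoa4 in 6, H2-Eb1 and Reg1 in 5, Slc30a2 and Vim in 4 and Birc5 in 3.

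**Figure D2:**
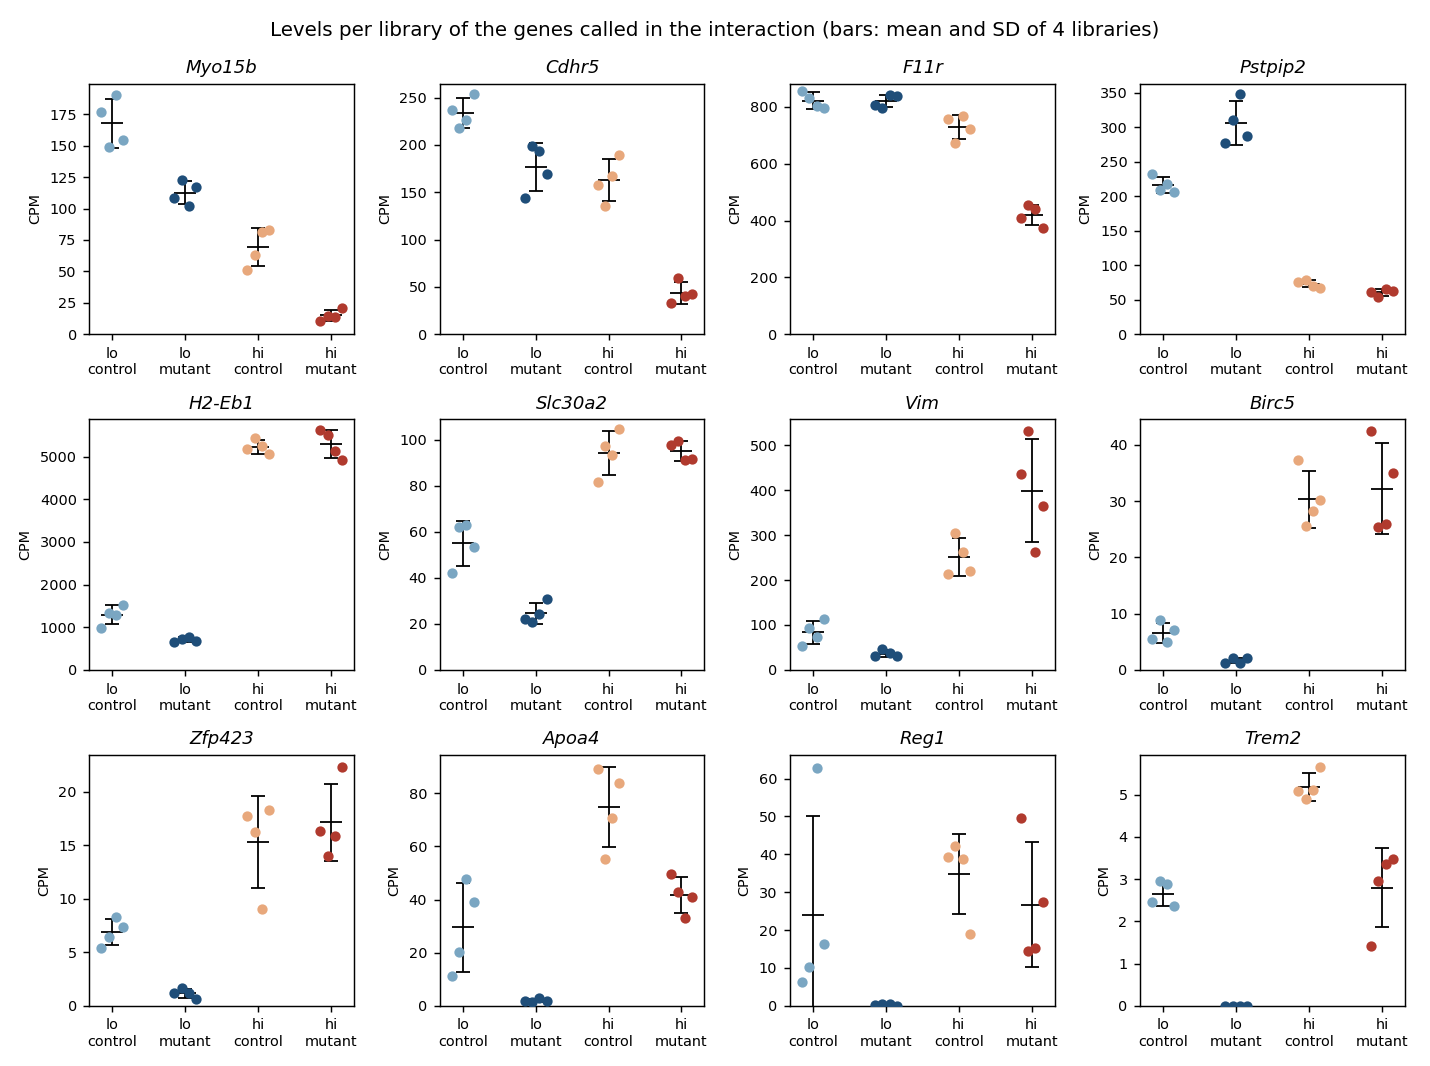
CPM per library (points) of the 12 genes called in the interaction, on a linear axis from 0, in control and double-mutant mTEClo (lo) and mTEChi (hi); bars give the mean and SD of 4 libraries. In the top row the mTEChi groups stand further apart in fold for Myo15b, Cdhr5 and F11r; in the lower panels the double-mutant mTEClo libraries are the low ones, down to 0 reads for Trem2.

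Cdhr5 belongs to the intermicrovillar adhesion complex, whose members differed in where they fell. Of its 6 genes, 3 were called lower in mTEClo and 4 in mTEChi, and all 6 were negative in both (2.14% and 0.647% of all genes were called lower, and 51.4% and 48.9% were negative); the median was -0.92 in mTEClo and -1.43 in mTEChi. Cdhr2, the cadherin that pairs with CDHR5, had log2 fold changes of -0.21 (adjusted p = 0.823) in mTEClo and -1.41 (adjusted p = 0.025) in mTEChi. Its interaction of -1.20 (-1.999 to -0.39) did not pass (adjusted p = 0.218). Calml4, a light chain of the complex's myosin, fell in both (-0.87 and -1.45, adjusted p = 0.000731 and 1.09e-05), with an interaction of -0.58 (-0.95 to -0.20, adjusted p = 0.205).

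The scaffold genes of the complex did not share this form. Ush1c, which encodes harmonin, fell in mTEClo (log2 fold change -2.04, adjusted p = 0.000281) and not detectably in mTEChi (-0.28, adjusted p = 0.711); its interaction of 1.76 (1.04 to 2.48) just missed the threshold (adjusted p = 0.0683). Anks4b, a scaffold protein, fell in both (-2.06 and -2.25, adjusted p = 0.00197 and 0.00152), with an interaction of -0.18 whose interval of -1.14 to 0.77 leaves room for a difference. Myo7b, the motor, had -0.96 (adjusted p = 0.088) and -0.46 (adjusted p = 0.544). Cdhr2, Anks4b and Myo7b were added to complete the list after their values were seen.

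Of the 10 genes next in negative interaction, none of them called, 7 were called lower in mTEChi, and Ostf1, Pnpla6 and Ubn1 were not. The share of all genes called lower there was 0.647%, but ranking by the interaction, which contains the mTEChi fold change, favours such calls. Pnpla6, a lysophospholipase, was called higher in mTEClo instead (log2 fold change 0.38, adjusted p = 0.0273, beside -0.20 in mTEChi), and Slc25a12, a mitochondrial aspartate carrier, had 0.27 in mTEClo (adjusted p = 0.221) and -0.47 in mTEChi (adjusted p = 0.0327). Nmrk1, a kinase that makes NAD from nicotinamide riboside, was at 74.7 and 67.0 CPM in control and double-mutant mTEClo and at 101 and 42.7 in mTEChi. Its fold change was called in mTEChi (log2 fold change -1.24, adjusted p = 0.000269) and its interaction was -1.09 (-1.52 to -0.65, adjusted p = 0.0662). Mttp, which loads lipid onto apolipoprotein B in gut and liver, was at 25.1, 24.1, 25.9 and 24.3 CPM in control and 23.1, 26.0, 24.7 and 26.5 in double-mutant mTEClo. In mTEChi it was at 46.0, 51.8, 70.4 and 58.7 in controls and 21.1, 22.3, 29.0 and 35.3 in double mutants, a log2 fold change of -1.07 (adjusted p = 0.00235). Its mTEClo groups overlapped and its mTEChi groups did not; the interaction was -1.08 (-1.58 to -0.59, adjusted p = 0.0883).

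Further genes with negative interactions were the endocytic motor Myo6 (-0.06 in mTEClo, -0.69 in mTEChi, interaction -0.63, adjusted p = 0.0949), the signalling adaptor Gab2 (0.07, -0.98 and -1.05, adjusted p = 0.0883) and the ATP-gated channel P2rx4 (0.09, -0.48 and -0.57, adjusted p = 0.0883). The microfold cell receptor Gp2 was at 1732 to 2601 CPM in control and 1530 to 2146 in double-mutant mTEClo, and at 445 to 1316 and 161 to 469 in mTEChi. Its fold change in mTEChi was called (-1.55, adjusted p = 0.0151), although control mTEChi replicate 1 lay within the range of the double mutants, and its interaction of -1.46 was not (-2.32 to -0.60, adjusted p = 0.156).

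The 8 genes of positive interaction were all called lower in mTEClo and none of them was called in mTEChi. Of all genes, 2.14% were called lower in mTEClo and 0.836% were called in mTEChi. The interaction that chose these genes contains both fold changes, so the choice itself favours this pattern. Apoa4 (9:46240696-46243459) encodes an apolipoprotein that enterocytes secrete during fat absorption. It was at 11.3, 20.4, 47.9 and 38.95 CPM in control and 1.93, 1.49, 2.85 and 1.65 in double-mutant mTEClo. In mTEChi it was at 89.3, 55.4, 70.8 and 83.7 in controls and 49.5, 42.8, 33.0 and 40.9 in double mutants. The double mutants were below every control in both subsets, with 6.68% of the control mean left in mTEClo and 55.6% in mTEChi. Its log2 fold change came to -3.88 (SE 0.39, adjusted p = 5.55e-05) in mTEClo and -0.85 (SE 0.31, adjusted p = 0.241) in mTEChi, and the interaction was 3.03 (1.98 to 4.08, adjusted p = 0.0323).

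On the linear scale Apoa4 did not lose more in mTEClo: the loss was 27.7 CPM there and 33.2 in mTEChi, where its control level was higher. Among the 12 genes, Apoa4 and Myo15b were those whose difference changed sign between the log and the linear scale. The adjusted p of the Apoa4 interaction ran from 8.23e-07 to 0.204 over all alternatives run. Apoa1, the neighbouring main apolipoprotein of HDL, was at 4.98 to 72.4 CPM in control and 0.138 to 4.50 in double-mutant mTEClo, against 70.6 to 132 and 48.1 to 118 in mTEChi. It fell in mTEClo (-3.77, adjusted p = 0.0122), had -0.04 in mTEChi (adjusted p = 0.992), and its interaction of 3.73 was not called (1.73 to 5.74, adjusted p = 0.132).

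H2-Eb1 (17:34305867-34316674), the beta chain of an MHC class II molecule, was at 990.5, 1344, 1292 and 1532 CPM in control and 660, 735, 772 and 677.5 in double-mutant mTEClo. In mTEChi the levels overlapped, at 5055 to 5447 in controls and 4919 to 5622 in double mutants. The log2 fold change was -0.86 (SE 0.10, adjusted p = 0.000185) in mTEClo and 0.02 (SE 0.10, adjusted p = 0.978) in mTEChi, and the interaction 0.87 (0.57 to 1.18, adjusted p = 0.0323). H2-Aa, the alpha chain of the other class II isotype, had -0.95 (adjusted p = 0.000467) and 0.00 (adjusted p = 0.999), with an interaction of 0.95 (0.58 to 1.32, adjusted p = 0.0643).

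Birc5, the mitotic protein survivin, was at 5.44, 8.88, 5.00 and 7.06 CPM in control and 1.24, 2.09, 1.22 and 2.10 in double-mutant mTEClo, and at 25.6 to 37.4 and 25.5 to 42.4 in mTEChi, where the groups overlapped. Its interaction was 2.07 (1.30 to 2.84, adjusted p = 0.0448). Zfp423, a zinc finger transcription factor, was at 5.44 to 8.34 CPM in control and 0.600 to 1.64 in double-mutant mTEClo and at 9.001 to 18.2 and 14.03 to 22.3 in mTEChi (interaction 2.69, 1.78 to 3.60, adjusted p = 0.0316). Both genes thus fell in mTEClo (log2 fold change -1.98 and -2.53, adjusted p = 0.000775 and 0.000428) from a control level that was below that of mTEChi.

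Slc30a2, a zinc transporter, was at 41.9 to 62.7 CPM in control and 20.7 to 30.9 in double-mutant mTEClo, and at 81.5 to 104.5 and 91.2 to 99.6 in mTEChi (interaction 1.17, 0.75 to 1.59, adjusted p = 0.0365). Vim, the intermediate filament vimentin, was at 53.0, 93.8, 73.4 and 113.8 CPM in control and 31.9, 46.1, 37.6 and 30.3 in double-mutant mTEClo. In mTEChi it was at 214, 305.5, 261 and 221 in controls and 436.5, 532, 261.5 and 365 in double mutants, so it fell in mTEClo (-1.19, adjusted p = 0.00891), and its log2 fold change of 0.67 in mTEChi did not pass (adjusted p = 0.182). Its interaction was 1.86 (1.19 to 2.53, adjusted p = 0.0367).

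Reg1, a secreted lectin of pancreas and gut, and Trem2, a receptor of macrophages, came from low levels. Reg1 was at 6.25, 10.3, 62.9 and 16.3 CPM in control and 0.275, 0.448, 0.407 and 0 in double-mutant mTEClo, against 39.3, 42.2, 38.9 and 19.0 in control and 49.7, 14.4, 15.2 and 27.5 in double-mutant mTEChi. Its interaction was 5.92 (3.69 to 8.15, adjusted p = 0.0482). Trem2 had 72 reads over the control mTEClo libraries and 0 over the double mutants, at least 24.7-fold lower against a floor of 3 reads over the group, and its levels in mTEChi were 4.90 to 5.65 CPM in controls and 1.42 to 3.48 in double mutants. Its interaction was called (adjusted p = 0.0182); the fitted value of 6.30 rests on a group without reads and is not a bound.

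Marker lists of the Aire stage, of dividing cells and of some other cell types had lower sums in double-mutant mTEClo. Aire was at 210, 417, 447 and 565 CPM in control and 183, 147, 234 and 215 in double-mutant mTEClo, a fall of 1.07 on the log2 scale (SE 0.24, adjusted p = 0.0229), with control replicate 1 within the range of the double mutants. In mTEChi its log2 fold change was 0.15 (adjusted p = 0.875), and its interaction of 1.22 was not called (0.52 to 1.93, adjusted p = 0.154). The 19 measured genes of an Aire-stage list, H2-Eb1 and H2-Aa among them, had medians of -0.82 in mTEClo and -0.03 in mTEChi; 11 were called lower in mTEClo (2.14% of all genes were) and 0 in mTEChi (0.647%), and 13 had a positive interaction at unadjusted p under 0.05 (7.34% of all genes). The summed level of the list was 9468 to 16810 CPM in control and 6505 to 7894 in double-mutant mTEClo, and 57520 to 59910 against 50940 to 57770 in mTEChi.

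For 30 genes of proliferation, Birc5 among them, the medians were -0.999 and 0.15, with 5 called lower in mTEClo and 0 in mTEChi, against the same shares of all genes. Their sum was 371 to 666 CPM in control and 270 to 327 in double-mutant mTEClo, and 1270 to 1619 against 1241 to 2303 in mTEChi. For 16 myeloid and dendritic genes the medians were -0.88 and -0.06, with 2 called lower in mTEClo and 0 in mTEChi. Their sums overlapped in both subsets, at 506 to 847 against 312 to 622 CPM in mTEClo and 1806 to 2402 against 1719 to 2000 in mTEChi. The lists of fibroblasts and pericytes (171 to 310 against 119 to 178 CPM, overlapping) and of erythroid cells (15.98 to 43.8 against 10.8 to 14.7) had lower sums in double-mutant mTEClo too. Those of B cells (411 to 457 against 374 to 428), thymocytes (60.5 to 85.7 against 81.5 to 97.3) and endothelium (213 to 237 against 227 to 277) also overlapped in mTEClo. The mean of the B cell list was 430.5 CPM in control and 401 in double-mutant mTEClo. The means of the thymocyte and endothelium lists were higher in double mutants. In mTEChi the sums of fibroblasts and pericytes (819 to 898 against 568 to 1003), erythroid cells (36.0 to 50.4 against 39.1 to 56.7), thymocytes (95.6 to 143 against 108.5 to 146) and endothelium (115 to 176 against 122 to 147) overlapped, and that of B cells was higher in double mutants (647 to 676 against 681 to 805). None of the markers of the 6 lists of other cell types was at 0 in all 16 libraries. The part of these cells in the interaction of H2-Eb1, Birc5, Vim, Zfp423, Slc30a2 and Trem2 was not tested. Control mTEClo replicate 1 was the lowest control for H2-Eb1, Vim, Zfp423, Slc30a2, Apoa4, Reg1 and Aire.

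**Figure D3:**
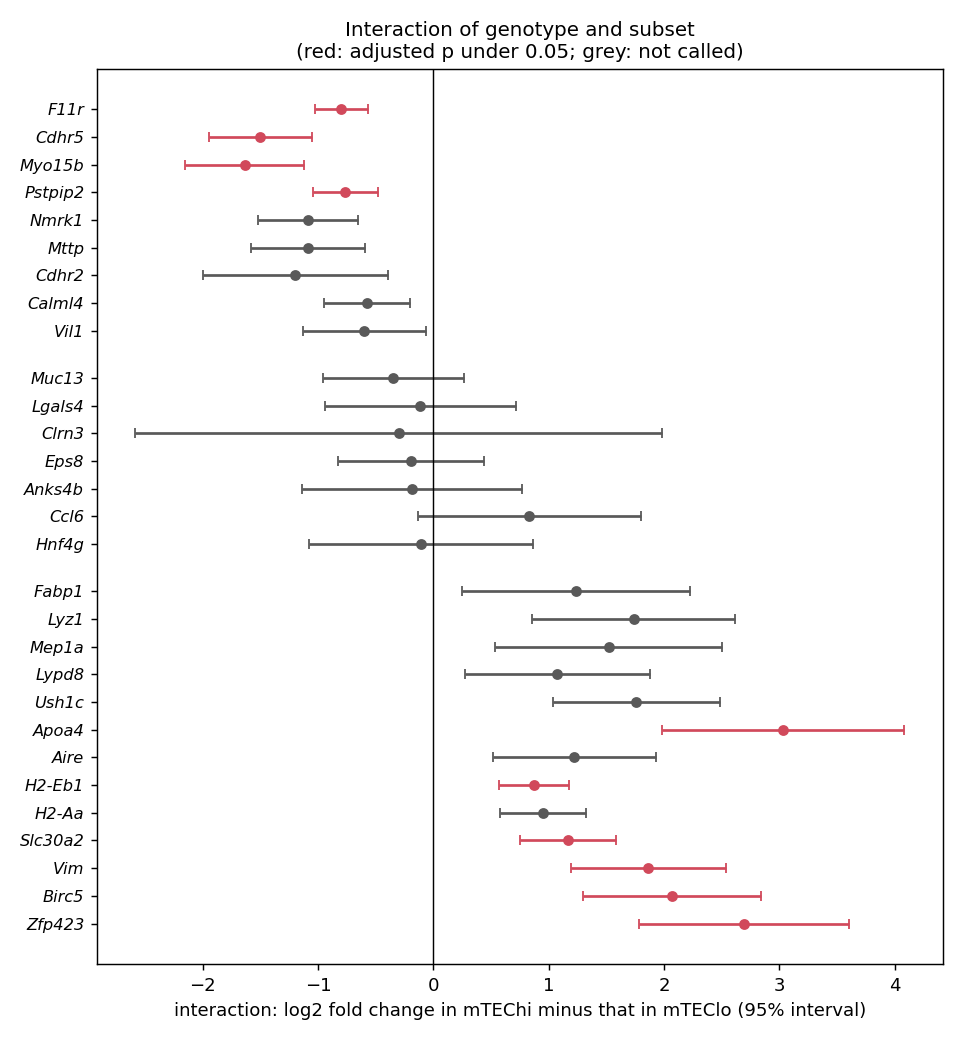
Interaction (log2 fold change in mTEChi minus that in mTEClo) with its 95% interval for 29 genes; red marks adjusted p under 0.05 and grey genes that were not called. The upper block lies left of 0, for a larger fold loss in mTEChi or, for Pstpip2, mainly a rise in mTEClo. The intervals of the middle block include 0, and the lower block lies right of 0 (larger fold loss in mTEClo).

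For 55 genes the fall was called in both subsets, with medians of -1.59 in mTEClo and -1.45 in mTEChi, and none of these passed the interaction. The 95% interval of the interaction included 0 for 38 of them, excluded it on the negative side for 5 and on the positive side for 12, and lay within 1 of 0 on the log2 scale, a fold of 2 in either direction, for 24. The median half-width was 0.72 with 4 libraries per group, and an interval of that width includes 0 for any smaller difference. The intervals are not adjusted over genes. Larger differences also missed the call, such as the Lyz1 interaction of 1.74 (adjusted p = 0.106).

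Muc13 (16:33794037-33819934), a membrane mucin of the gut, was at 60.4, 49.99, 56.5 and 76.1 CPM in control and 16.6, 11.5, 10.7 and 22.5 in double-mutant mTEClo. In mTEChi it was at 69.3, 75.1, 72.0 and 99.1 in controls and 14.4, 17.5, 14.3 and 16.5 in double mutants. The groups were apart in both subsets, and 25.2% and 19.9% of the control mean was left. On the log2 scale it changed by -1.99 (SE 0.21, adjusted p = 5.69e-05) in mTEClo and -2.33 (SE 0.21, adjusted p = 1.09e-05) in mTEChi, with an interaction of -0.35 (-0.95 to 0.26, adjusted p = 0.721).

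Lgals4, an intestinal galectin, fell by 2.27 and 2.38 on the log2 scale (interaction -0.11, -0.94 to 0.72), and Eps8, an actin-capping protein of microvilli, by 1.31 and 1.499 (interaction -0.19, -0.82 to 0.44). The chemokine gene Ccl6 fell by 3.56 and 2.72 (interaction 0.83, -0.13 to 1.80). Clrn3, a tetraspan membrane protein, had the deepest losses of these, at -4.52 and -4.82, but its interaction could only be placed between -2.58 and 1.99. Eps8 and Clrn3 were chosen after their values were seen.

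Within the genes lower in both, some antimicrobial and enterocyte genes had the deeper fold loss in mTEClo, with intervals above 0 that did not pass after adjustment. Lyz1, a Paneth cell lysozyme, kept 9.7% of its control level in mTEClo and 32.4% in mTEChi (interaction 1.74, 0.85 to 2.62, adjusted p = 0.106). Mep1a, a brush border protease, kept 12.2% and 34.6% (interaction 1.52, 0.53 to 2.50, adjusted p = 0.205), Lypd8, a colonic antibacterial protein, 13.4% and 28.3% (1.08, 0.28 to 1.88, adjusted p = 0.26), and Fabp1, a fatty acid binding protein, 11% and 26% (1.24, 0.25 to 2.23, adjusted p = 0.306). In CPM, Lyz1, Mep1a and Lypd8 lost more in mTEChi, by 522 against 337, 102 against 57.4 and 263 against 84.6.

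Other structural and transport genes leaned the other way without passing. Vil1, the microvillus bundling protein villin, was at 42.2% and 27.8% of control (interaction -0.60, -1.13 to -0.06, adjusted p = 0.374). The intestinal zinc importer Slc39a4 had log2 fold changes of -1.11 and -1.87 (interaction -0.76, adjusted p = 0.367), and Tmprss2, a membrane serine protease, -0.69 and -1.29 (interaction -0.60, adjusted p = 0.272). Each of these falls was called in both subsets.

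For the targeted genes the interval of the interaction included 0. Hnf4g was at 9.25, 13.2, 16.1 and 13.1 CPM in control and 4.54, 3.28, 4.88 and 8.54 in double-mutant mTEClo, and at 22.8, 15.8, 20.3 and 23.2 against 6.81, 5.37, 5.80 and 13.3 in mTEChi. Its log2 fold change was -1.28 (adjusted p = 0.0505) and -1.39 (adjusted p = 0.0534), and the interaction -0.11 (-1.08 to 0.86). Hnf4a was at 2.31 to 7.06 CPM in control and 2.31 to 4.35 in double-mutant mTEClo, and at 1.05 to 7.65 and 1.56 to 7.22 in mTEChi, with overlapping groups and an interaction of 0.43 (-1.22 to 2.08). The deleted parts are not given. Reads from elsewhere in either gene, and from Hnf4aos on the other strand of Hnf4a, are included, so these values do not check the genotypes.

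Serinc3, which encodes a multipass membrane protein, lies on the chromosome of Hnf4a, at 2:163623272-163645131. It was at 166, 157, 186 and 169 CPM in control and 337, 319, 345 and 294 in double-mutant mTEClo, and at 153, 121, 147 and 140.5 against 200.5, 199, 219 and 238 in mTEChi. It rose in both (log2 fold change 0.93 and 0.61, adjusted p = 5.55e-05 and 0.00239), with an interaction of -0.33 (-0.61 to -0.05, adjusted p = 0.353). The only other gene called higher in both was Sox9.

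The median fall of the entero-hepato program was of similar size in both subsets. It was taken as the 200 genes of smallest p among those higher in the wild-type entero-hepato mTEC gate than outside it, from libraries that had no part in the interaction; 199 were measured here. Their median log2 fold change was -0.57 in mTEClo and -0.55 in mTEChi, with 75 and 49 called lower and 174 and 177 negative. Of all genes tested, 2.14% and 0.647% were called lower and 51.4% and 48.9% were negative. The median interaction was 0.03, beside 0.05 over all genes, and single genes spread to both sides. At unadjusted p under 0.05, 31 had a negative and 36 a positive interaction (15.6% and 18.1% of the 199). The shares of all genes were 4.1% and 7.34%. Cdhr5 and F11r were called on the negative and Apoa4 on the positive side.

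The gut gene lists are given by their medians and counts, to be read beside 2.14% of all genes called lower in mTEClo, 0.647% in mTEChi, and 4.1% negative and 7.34% positive interactions at unadjusted p under 0.05. No test of a list was made. Over 23 genes of intestinal lipid handling the median was -0.21 in mTEClo and -0.76 in mTEChi, with 6 called lower in each, a median interaction of -0.03, and 5 negative and 6 positive interactions at that level; Mttp was among the negative and Apoa4 and Apoa1 among the positive. Over 18 brush border enzymes it was -0.81 and -0.54, with 4 and 3 called lower, a median interaction of 0.33, 0 negative and 3 positive. Over 24 unconventional myosins it was 0.01 and -0.25, with 1 and 2 called lower, 3 negative and 1 positive. Over 25 genes of tight junctions and apical polarity it was 0.01 and -0.06, and F11r was the one gene with a negative interaction at that level, none being positive.

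Over 35 hepatocyte plasma proteins the medians were -0.46 and -0.52, with 6 and 3 called lower, and over 25 genes of hepatocyte metabolism -0.62 and -0.13, with 3 and 0. Over 12 microfold genes they were -1.14 and -0.56, with 7 and 3 called lower. Over 24 intestinal transporters they were -0.46 and -0.30, with 3 and 2. Beside these counts, 2.14% of all genes were called lower in mTEClo and 0.647% in mTEChi. Some members of these lists are among the genes named above.

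**Figure D4:**
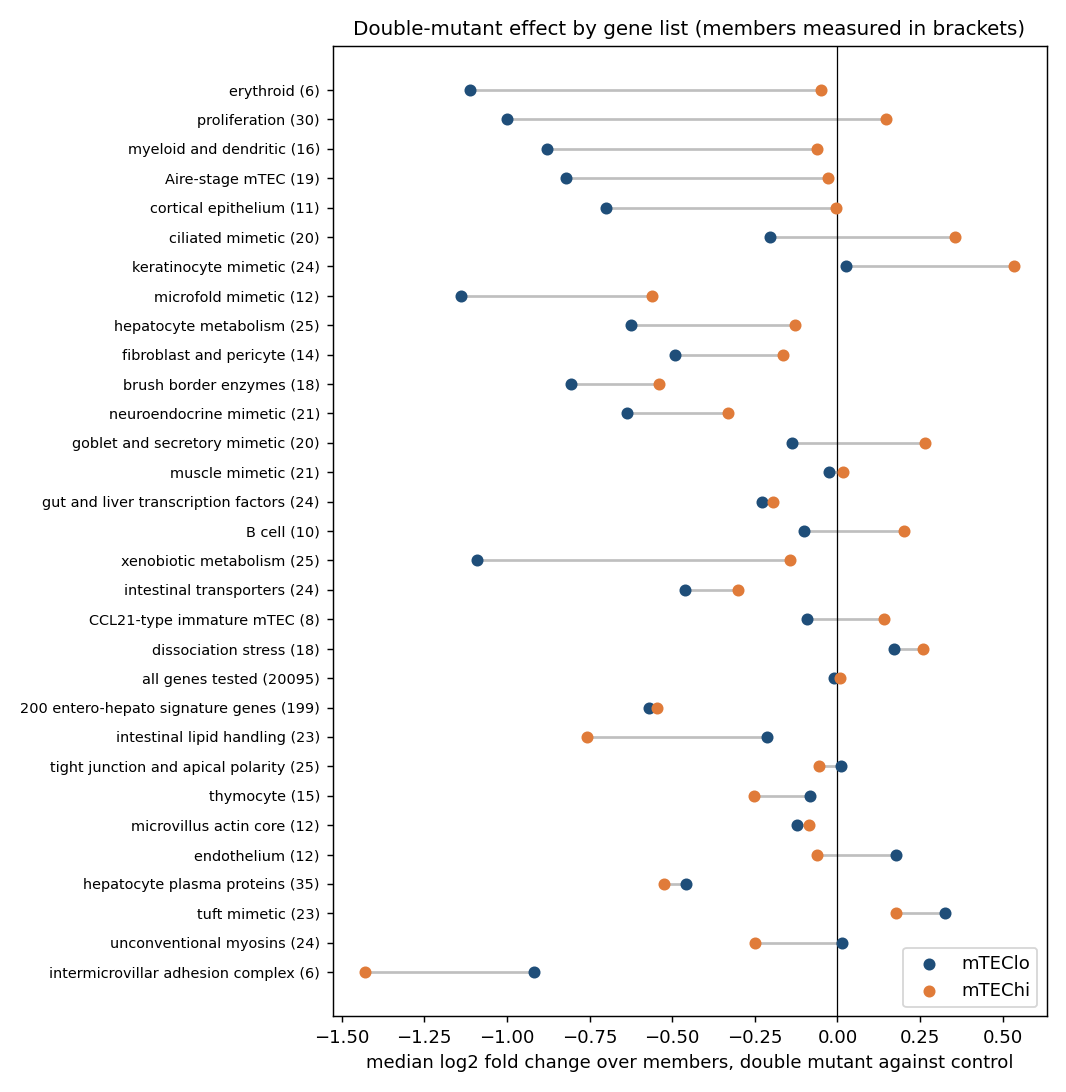
Median log2 fold change of double-mutant against control cells over the measured members of each gene list (number in brackets), in mTEClo (blue) and mTEChi (orange), ordered by the median interaction. Proliferation and the Aire stage are lower in mTEClo, at -0.999 and -0.82, and near 0 in mTEChi, while the 200 entero-hepato signature genes sit at -0.57 and -0.55.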

How the data were processed

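The authors deposited whole-number read counts per gene for 55011 symbols in 28 libraries, of which 52936 symbols were found in GENCODE M21; 0 columns were left without a sample. Per the submitters' processing notes STAR 2.7.3a, featureCounts and mm10 were used. The gene annotation and strand setting were not given in the sources used here. The library kit does not mark strand, and PCR copies count as reads.

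The 16 libraries were grouped by genotype and subset and fitted in 1 model with edgeR 4.0.16 in R 4.3.3 (TMM, filterByExpr with minimum count 10 and total 15, quasi-likelihood test). Benjamini-Hochberg adjustment ran over the 20095 genes tested, with calls at adjusted p under 0.05. CPM are on TMM-scaled libraries, except the plain-total CPM of Aire and Trpm5 in the check of the labels and the list sums. Intervals are 95% and two-sided. The test was checked on simulated counts.

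Depth was 5344084 to 8342583 counts; over 24 pairs of replicates the chi-square per degree of freedom was 8.41 to 17.8, so none agreed within sampling noise. Alternatives were DESeq2 1.42.0, limma 3.58.1 (voom), other normalization and filters, all 28 libraries, a replicate block, leave-one-outs and the linear scale. Leaving out both libraries of lowest correlation was added after seeing the data.

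The comparison, its lists (29, of textbook genes) and members were chosen with earlier results of these data known. Named were the 4 marker genes, Hnf4a, Hnf4g, Aire, all interaction calls, the 10 next genes in each direction of at least 10 CPM, the 10 lower and 5 higher called genes of smallest p in each subset, and up to 3 genes per list; the text gives a selection.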

Additional observations from a re-analysis of the deposited data

Results flagged for a closer look

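For 12 genes the double-mutant effect differed between the subsets by the interaction term itself. The log2 fold change in mTEChi minus that in mTEClo was negative for F11r (-0.80), Cdhr5 (-1.50), Myo15b (-1.63) and Pstpip2 (-0.76). It was positive for H2-Eb1 (0.87), Slc30a2 (1.17), Vim (1.86), Birc5 (2.07), Zfp423 (2.69), Apoa4 (3.03), Reg1 (5.92) and Trem2 (6.30). The Trem2 value rests on a group without reads and is not a bound. Reg1 had 0 to 3 reads per library in double-mutant mTEClo.

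Of 60 groups of 4 libraries tested over 15 genes for a library far from the others, 1 held one: Reg1 was at 18.95 CPM in control mTEChi replicate 4, with the other 3 libraries at 38.85 to 42.17. Chance gives about 1 such group in 20.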

How the results depend on the processing

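The 12 interaction calls were 321 with no filter on low counts, 360 by DESeq2, 4 by limma-voom, 3 with all 28 libraries in the fit, 257 without both libraries of lowest correlation, and 1 to 157 with 1 library left out (3 to 7 without control mTEClo replicate 3, double-mutant mTEClo replicate 2 or 4, control mTEChi replicate 1, 2 or 3 or double-mutant mTEChi replicate 1). The replicate block gave 5, and 1 (Cdhr5) with thymus number within genotype as the block. The labels do not say whether libraries of the same number share a thymus. Deviations from the group means of same-numbered libraries had correlations of -0.0837 to 0.107 over 24 pairs, 1 of them over 0.1. The 8 of these pairs with the same genotype, across subsets, had 0.00849 to 0.058. Their median was 0.0358, against -0.00266 for pairs of different number. Such values cannot decide whether the samples are paired. With mTEClo alone, 458 calls became 822 with no filter, 903 by DESeq2, 226 by limma-voom, 296 with all 28 libraries, 295 in a fit of its 8 libraries, and 238 to 658 in the leave-one-outs, lowest without control mTEClo replicate 4 and 258 without double-mutant mTEClo replicate 1. In mTEChi, 168 became 418, 555, 218 and 282 with no filter, by DESeq2, by limma-voom and with all libraries, 349 without both libraries, and 95 to 355 in the leave-one-outs, lowest without control mTEChi replicate 3, with 105 and 106 without double-mutant mTEChi replicates 1 and 4. A fit of the 8 mTEChi libraries gave 117 calls, of which 84 were among the 168. In that fit 7 genes were higher, against 38 in the main fit. By limma-voom the lower genes numbered 183 in mTEClo and 193 in mTEChi, against 431 and 130 by edgeR. The cause was not tested.

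The direction of all 12 called genes was kept on the log2 scale in 26 alternatives; on the linear scale the difference turned for Apoa4 (-5.57 CPM) and Myo15b (0.743 CPM). Interactions near 0 changed sign. Hnf4g ranged from -0.4931 to 0.2134 in leave-one-outs and came to 0.15 without both libraries. Lgals4 came to 0.05672 by voom with quality weights, -0.3016 to 0.2275 in leave-one-outs and 0.1029 without both libraries. Clrn3 came to 1.12 and 1.03 by voom without and with weights, -1.299 to 3.404 in leave-one-outs and 0.05403 without both libraries, and Anks4b ranged from -0.5457 to 0.06871 in leave-one-outs.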

Other observations

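Fewer genes rose than fell, and Pir, Gnat3 and Mt1 were among those that rose in mTEChi. Pir, an iron-binding nuclear protein, rose from 10.9 to 32 CPM in mTEChi (log2 fold change 1.55, adjusted p = 0.00072 by edgeR), beside 100 and 126 CPM in mTEClo (0.33, adjusted p = 0.476), with an interaction of 1.22 (adjusted p = 0.0883). Gnat3, the taste G protein gustducin of tuft cells, rose from 19.8 to 45.0 CPM in mTEChi (1.18, adjusted p = 0.00162), beside 581 and 800 in mTEClo (0.46, adjusted p = 0.155). Mt1, a metallothionein, rose from 211 to 425 CPM in mTEChi (1.01, adjusted p = 0.00387) and had 0.15 in mTEClo (adjusted p = 0.807). The 23 tuft genes had medians of 0.33 in mTEClo and 0.18 in mTEChi. Of these, 1 and 2 were called higher, beside 0.134% and 0.189% of all genes. Their sum was 16600 to 21850 CPM in control and 23870 to 24930 in double-mutant mTEClo. The 24 keratinocyte genes had medians of 0.03 and 0.53, with 0 called higher in either subset and 1 called lower in mTEClo (2.14% of all genes were).

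Lists of the cortical epithelium and of xenobiotic metabolism had lower medians in mTEClo than in mTEChi. Foxn1, the transcription factor of thymic epithelium whose gene drives the Cre, was at 51.2 and 29.1 CPM in control and double-mutant mTEClo (log2 fold change -0.81, adjusted p = 0.0138) and 153 and 177 in mTEChi (0.21, adjusted p = 0.684), with an interaction of 1.02 (adjusted p = 0.0909). The chemokine Ccl25 had -1.45 (adjusted p = 0.0167) and -0.22 (adjusted p = 0.85). Over 11 cortical genes the medians were -0.70 and 0.00, with 4 and 0 called lower, and over 25 xenobiotic genes -1.09 and -0.14, with 4 and 2 called lower (2.14% and 0.647% of all genes). The median interaction was 0.67 over the cortical genes but 0.11 over the xenobiotic genes, beside 0.05 over all genes.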
